A study of Mus musculus with 6 samples.

Results

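Collagens are the main structural proteins of cartilage, bone and loose connective tissue, and each one is built from 3 chains wound around each other. The genes described here are the 44 collagen chain genes in the deposited table of 17854 genes, taken as every row whose gene symbol is Col, a number, the letter a and a number. They were compared between 3 libraries labelled Inject Prrx and 3 libraries labelled Native Prrx, all from male C57BL/6 mice and all labelled chondrocyte. The Inject Prrx libraries come from Tomato+ cells recovered from repaired articular cartilage after mice with knee osteoarthritis, induced by cutting the anterior cruciate ligament, were injected with *Prrx1*-lineage mesenchymal stem cells (MSCs) of inguinal white fat. They are called MSC-derived below. The Native Prrx libraries come from the resident articular Tomato+ cells of *Prrx1-Cre; R26tdTomato* mice matched for age and sex, and are called endogenous. In both groups the cells were freed from the cartilage with a type II collagenase and sorted for red fluorescence. The label is one of lineage, since Cre driven by *Prrx1*, a gene of limb mesenchyme, switches tdTomato on for good, so it stays in every descendant of a cell that once expressed *Prrx1*. The study names 3 mice per group but ties no mouse to a library, and the sources used here do not say whether the endogenous mice had surgery. The groups also differ in the tissue of origin of the cells, inguinal fat or resident cartilage. Injection, injury, host and tissue of origin therefore cannot be told apart. With no statement that the libraries of a group are separate mice, the p-values measure the spread between libraries.

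Fibrillar collagens (types I, II, III, V, XI, XXIV and XXVII) form the cables of the tissue, and in hyaline cartilage type II is the main one, with type XI inside the fibril and type IX on its surface. Network collagens form sheets, such as the type IV network of basement membranes and the type X network around hypertrophic chondrocytes. FACITs (fibril-associated collagens with interrupted triple helices) decorate fibrils, type VI forms beaded filaments around cells, and transmembrane collagens sit in the cell membrane. Type I is the collagen of bone, tendon and fibrocartilage, and type III accompanies it in soft, stretchable and healing tissue.

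The promoter stretches below stand for the members on which the results turn. *Col9a1*, the gene with the largest decrease, and *Col19a1*, the tested collagen gene with the largest positive estimate, are next to each other on chromosome 1 in RefSeq's gene order on GRCm38.p6. *Col11a1* and *Col10a1* are cartilage genes, *Col1a2* is a chain of the most abundant collagen in both groups, and *Col3a1* kept more of its endogenous level than most. Each stretch is the 100 bases before a transcription start in RefSeq on build GRCm38.p6, written 5′ to 3′ on the gene's strand. Capitals mark the TATA box letters TATAAA, the CCAAT box CCAAT, the GC box GGGCGG or the Sox-type motif AACAAT, read on either strand.
Col9a1, upstream start, chr1:24177510-24177609, plus strand: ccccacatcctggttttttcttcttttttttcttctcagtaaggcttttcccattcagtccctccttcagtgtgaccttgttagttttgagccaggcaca
Col9a1, downstream start, chr1:24195103-24195202, plus strand: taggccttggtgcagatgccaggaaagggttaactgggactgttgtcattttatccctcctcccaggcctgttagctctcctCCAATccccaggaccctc
Col19a1, chr1:24587438-24587537, minus strand: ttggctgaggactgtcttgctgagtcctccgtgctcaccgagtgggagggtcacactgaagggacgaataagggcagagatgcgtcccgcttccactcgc
Col11a1, chr3:114030440-114030539, plus strand: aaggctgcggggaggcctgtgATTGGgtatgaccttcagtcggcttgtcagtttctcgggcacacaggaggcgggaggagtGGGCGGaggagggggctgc
Col10a1, chr10:34389881-34389980, plus strand: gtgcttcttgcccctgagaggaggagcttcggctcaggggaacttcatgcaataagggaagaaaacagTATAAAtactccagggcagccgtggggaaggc
Col1a2, chr6:4505518-4505617, plus strand: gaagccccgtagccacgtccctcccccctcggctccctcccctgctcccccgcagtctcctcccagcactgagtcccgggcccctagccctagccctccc
Col3a1, chr1:45311438-45311537, plus strand: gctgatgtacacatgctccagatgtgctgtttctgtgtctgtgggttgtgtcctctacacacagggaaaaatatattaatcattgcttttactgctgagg

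Windows of 250 bases before the start were read for 35 of the 44 genes (38 windows). Without a window are *Col1a1*, *Col2a1*, *Col4a3*, *Col5a2*, *Col9a3*, *Col12a1*, *Col14a1*, *Col22a1* and *Col26a1*. GGGCGG was found in 22 of the 38 windows and in 32.7% of all 32851 windows of that length. CCAAT was found in 13 of 38 (33.8% of all), TATAAA in 5 (12.4% of all) and AACAAT in 1 (9.42% of all). No 2 of these 4 motifs share letters in the stretches printed above. These are matches of letters in a window and say nothing about which factor binds there.

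The expected counts of the 6 libraries summed to between 22060628 and 24881796, so that 3 counts, taken as the smallest level that can be seen, were 0.121 to 0.136 CPM (counts scaled to the same library size). Floors and intervals of this kind cover counting error only. Endogenous replicate 1 stood apart from the other two of its group, with 3459 genes at 0 against 1338 and 1395, and a chi-square statistic per gene of 56.6 and 53.3 against them, where the other two gave 5.3 and pairs of MSC-derived libraries 3.84 to 4.24. Among the collagen genes, 21 were above both of its group members in that library, 18 were below both and 5 were between. Of those below, 8 genes were at 0 in that library and in neither of the other two endogenous ones. Calls of collagen chain genes that rest on it are given with and without it.

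Most collagen chain genes were lower in the MSC-derived cells. Of the 44 genes, 40 passed the expression filter, and among these edgeR's quasi-likelihood test called 33 lower and 1, *Col14a1*, higher (threshold of 0.05 on the adjusted p), while 6 passed in neither direction. Over all 14289 genes tested, 30.3% were lower and 31.3% higher. Of the collagen genes called lower, *Col4a3*, *Col4a4*, *Col4a5*, *Col4a6* and *Col25a1* passed the filter only through their endogenous libraries. A call of higher was thus not open to them. In the same way *Col19a1*, *Col20a1* and *Col6a6*, which were not called, passed the filter only through their MSC-derived libraries. With limma on log2(TPM + 1), chosen after the data were seen, the split was 5962 lower and 3124 higher over all genes, and 34 lower and 2 higher among the collagen genes. The median log2 fold change (MSC-derived over endogenous) was -3.39 for the collagen genes tested and 0.05 for all genes tested. Without endogenous replicate 1, 35 collagen genes were lower and 2 higher. The FPKM of the groups (fragments scaled to transcript length and library size) did not overlap for 36 of the 40, and for 73.2% of all genes tested. RSEM divided few reads between chains, and the expected counts of 38 of the 44 genes were whole numbers in every library.

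**Figure D1:**
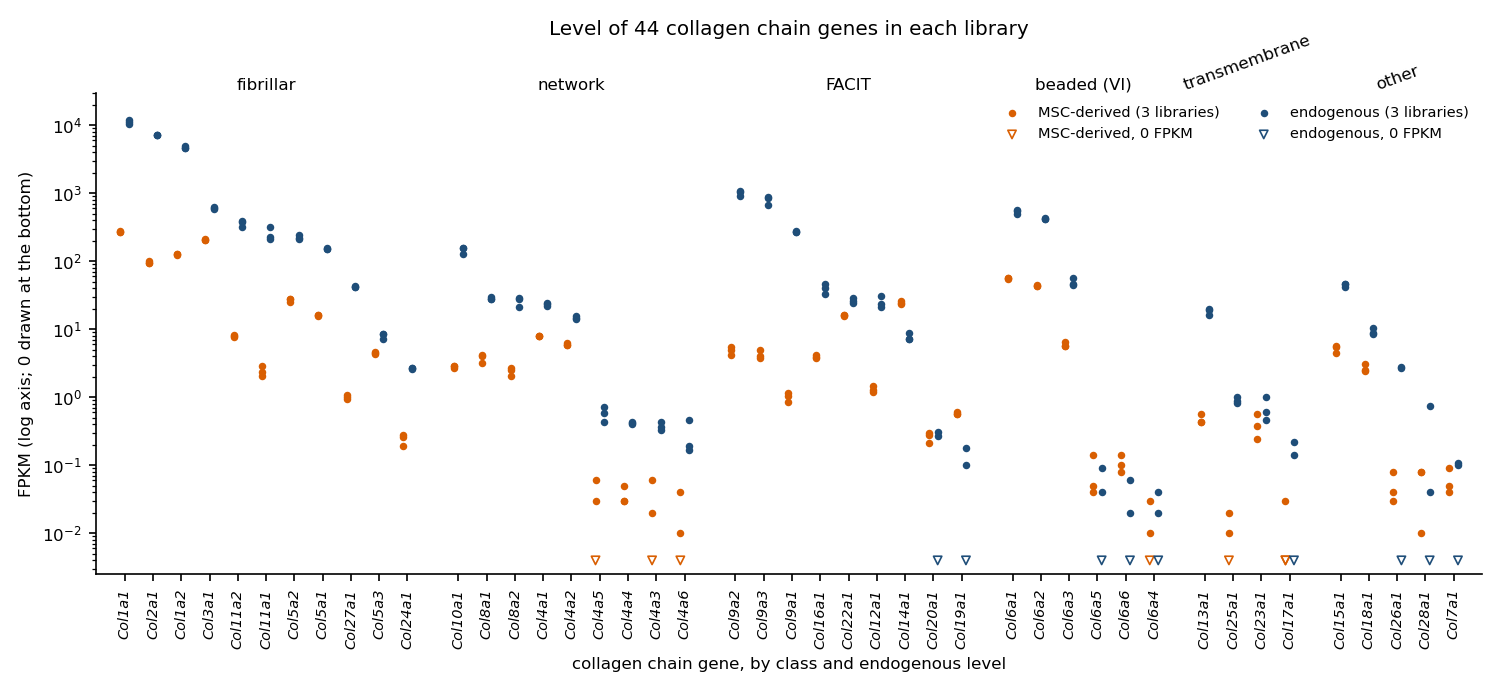
Level of each of the 44 collagen chain genes in FPKM on a log axis, with 1 point per library (orange, MSC-derived; blue, endogenous), genes grouped by class and ordered by their endogenous level. Open triangles at the bottom are libraries with 0 FPKM. The blue points lie above the orange ones in all 11 fibrillar and all 9 network genes. *Col14a1* has the reverse order, as do *Col19a1* and *Col6a6*, which were low and not called.

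Summed over the 44 genes, collagen FPKM was 948.2, 957.7 and 964.3 in the MSC-derived libraries and 28820, 28220 and 27340 in the endogenous libraries, which is 29.4 times as much. As a share of all transcripts (TPM, which has the same sum in every library), collagens made up 0.117%, 0.118% and 0.119% in the MSC-derived cells and 5.71%, 4.93% and 4.77% in the endogenous cells. As a share of expected counts, where long transcripts weigh more, they made up 0.503% to 0.513% and 13.8% to 14.9%. These are averages over all sorted cells, so fewer collagen-making cells and less collagen RNA per cell cannot be told apart. FPKM of all genes summed to 808701 to 813572 in the MSC-derived libraries and to 504768 to 573603 in the endogenous ones, so a ratio of FPKM and a fitted fold change are not on quite the same scale.

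Markers of several cell types moved with the groups, with 30.3% of all genes lower and 31.3% higher as the background. All 12 chondrocyte genes listed were lower in the MSC-derived cells (summed FPKM 2663 to 2736 against 25980 to 31460), as were 9 of 10 osteoblast genes (323.9 to 345.2 against 18940 to 37050) and 11 of 12 fibroblast genes (1221 to 1239 against 4737 to 5575), where *Pi16* alone was higher. Among the chondrocyte genes *Prg4* changed least and held most of the MSC-derived sum. It was at 1598, 1659 and 1606 FPKM against 2447, 1982 and 2091 FPKM (log2 fold change -0.51, SE 0.07). Every listed gene of leukocytes (10 of 10, 11480 to 11920 against 273.7 to 434.7), macrophages (12 of 12, 21220 to 21860 against 375.9 to 545.8), neutrophils (10 of 10, 119000 to 126800 against 4129 to 6612) and erythroid cells (10 of 10, 37980 to 39090 against 5568 to 8314) was higher, and none was at 0 in all libraries of a group. Of mural cell genes 9 of 10 were lower, of endothelial genes 6 of 10 were higher and 1 lower, and of 7 adipocyte genes tested 3 were higher and 4 lower. Of the listed genes tested, 2 of 6 skeletal muscle genes were lower and 1 of 4 epithelial genes was higher, shares near the background. The part of these cell types in the collagen values was not tested.

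**Figure D2:**
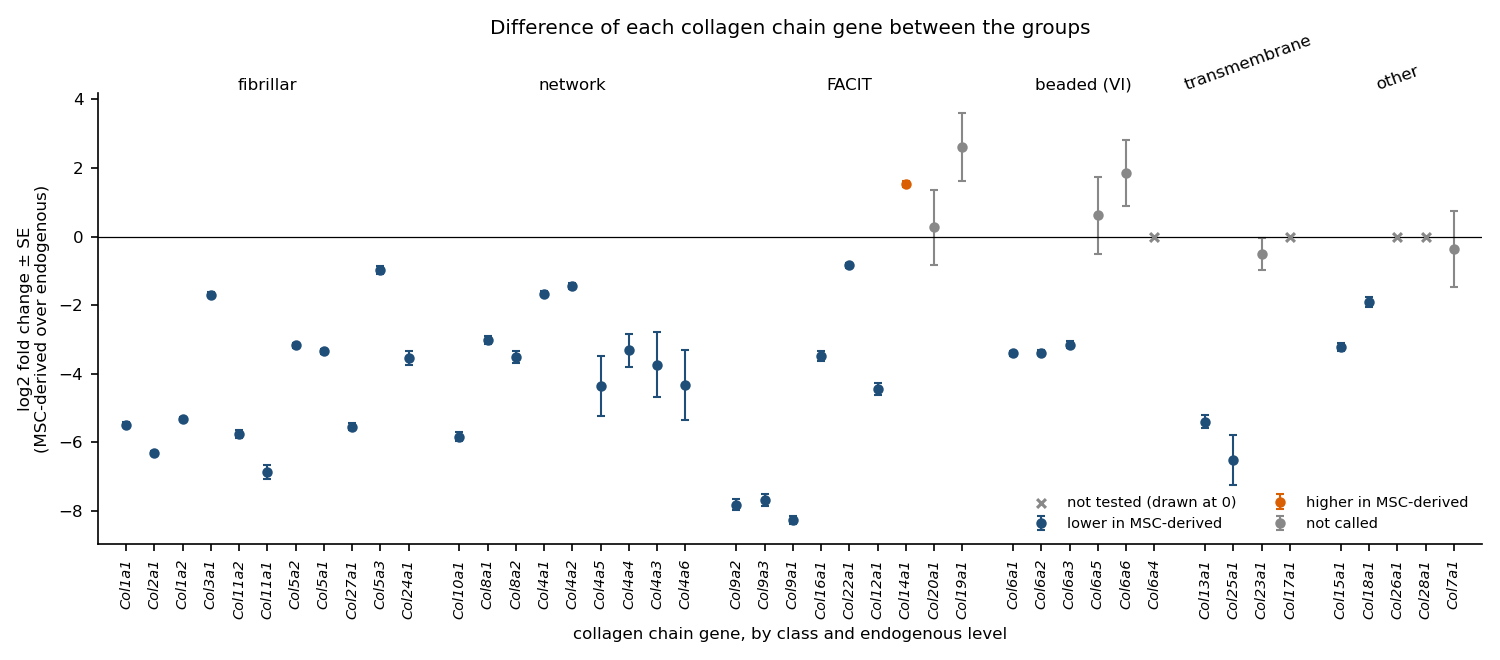
Log2 fold change of each collagen chain gene, MSC-derived over endogenous, with its standard error as the bar, by class. Blue points were called lower, the orange point (*Col14a1*) higher, grey points passed in neither direction, and grey crosses are the 4 genes not tested. The type IX chains *Col9a1*, *Col9a2* and *Col9a3* lie lowest, between -8.25 and -7.68.

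All 11 fibrillar genes were lower, where 30.3% of all genes tested were, with log2 fold changes from -6.87 to -0.97 and a median of -5.33. *Col2a1*, the chain of type II collagen, was at 95.7, 95.7 and 102.4 FPKM in the MSC-derived libraries and 7095, 7147 and 7094 FPKM in the endogenous ones. The MSC-derived level was 1.38% of the endogenous one, and the log2 fold change was -6.30 (SE 0.06, adjusted p = 1.76e-08, edgeR). Each group was tight, with coefficients of variation of 3.91% and 0.424%.

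*Col11a1* and *Col11a2*, chains of type XI collagen in the core of the cartilage fibril, had estimates about 1 log2 unit apart. *Col11a1* was at 2.91, 2.08 and 2.36 FPKM against 323.6, 212.4 and 231 FPKM, a log2 fold change of -6.87 (SE 0.21, adjusted p = 2.11e-07, edgeR). Its endogenous spread came mainly from replicate 1, which was 1.46 times the mean of the other two. *Col11a2* was at 8.13, 8.04 and 7.59 FPKM against 316, 396.2 and 376.7 FPKM, a log2 fold change of -5.76 (SE 0.12), and here replicate 1 was the lowest endogenous library.

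Type I collagen was the most abundant in both groups. *Col1a1* was at 268.1, 270.4 and 275.6 FPKM in the MSC-derived libraries and 11869, 11215 and 10348 FPKM in the endogenous ones, a log2 fold change of -5.48 (SE 0.07, adjusted p = 1.97e-08, edgeR). *Col1a2* was at 123.7, 126.3 and 129.8 FPKM against 4878, 4635 and 4589 FPKM, a log2 fold change of -5.33 (SE 0.06). The chains of type I, which are joined in one molecule, thus changed by nearly the same amount.

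*Col3a1*, the chain of type III collagen, changed far less than its type I and II relatives. It was at 205.6, 210.1 and 202.6 FPKM in the MSC-derived libraries and 637.8, 611.3 and 589.4 FPKM in the endogenous ones, a log2 fold change of -1.69 (SE 0.06, adjusted p = 2.82e-07, edgeR). The MSC-derived level was 33.6% of the endogenous one. *Col3a1* took the second place among collagen genes in every MSC-derived library and the sixth in every endogenous library.

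The remaining fibrillar genes were lower too. *Col5a1* and *Col5a2*, type V chains that set the width of type I fibrils, were at 15.9 to 16.4 and 25.3 to 28.01 FPKM in the MSC-derived cells and 150.7 to 155.3 and 216.1 to 240.5 FPKM in the endogenous cells, with log2 fold changes of -3.35 and -3.17 (SE 0.06 and 0.08). Per library, *Col5a1* was at 16.2, 15.9 and 16.4 FPKM against 155.3, 150.7 and 151.7 FPKM. *Col5a2* was at 25.3, 28.01 and 27.6 FPKM against 240.5, 216.1 and 217 FPKM. *Col5a3*, the remaining type V chain, had the smallest fibrillar change, -0.97 (SE 0.11, adjusted p = 0.000175, edgeR), from 8.10 ± 0.766 to 4.48 ± 0.16 FPKM (SD, n = 3). *Col27a1*, a collagen of growth cartilage, was at 1.02 ± 0.0551 against 42.6 ± 0.808 FPKM (log2 fold change -5.54), and *Col24a1*, a collagen of bone, at 0.243 ± 0.0473 against 2.68 ± 0.0721 FPKM (-3.54).

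All 9 network genes were lower, with a median log2 fold change of -3.52, where 30.3% of all genes tested were lower. For *Col4a3*, *Col4a4*, *Col4a5* and *Col4a6*, which passed the filter only through their endogenous libraries, a call of higher was not open. The largest decrease was that of *Col10a1*, the chain of hypertrophic cartilage whose promoter stretch above holds TATAAA, at 2.66, 2.88 and 2.92 FPKM against 159, 129 and 154.8 FPKM (log2 fold change -5.83, SE 0.12, adjusted p = 5.67e-08, edgeR). The smallest were those of *Col4a1* and *Col4a2*, the type IV chains found in nearly all basement membranes. *Col4a1* was at 8.003 ± 0.0814 against 23.4 ± 1.11 FPKM (log2 fold change -1.67, SE 0.07) and *Col4a2* at 5.97 ± 0.199 against 14.9 ± 0.782 FPKM (-1.43, SE 0.09; SD, n = 3).

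The other type IV chains, which replace these in specialised basement membranes, were low throughout and passed the filter only through their endogenous libraries. *Col4a3*, *Col4a4*, *Col4a5* and *Col4a6* were represented by 0 to 12 counts in the MSC-derived group and 27 to 103 in the endogenous group, with log2 fold changes of -3.73, -3.32, -4.35 and -4.33 (SE 0.94, 0.47, 0.88 and 1.03). *Col4a3* and *Col4a6* lost their call without MSC-derived replicate 1, with adjusted p of 0.0593 and 0.0554 (edgeR). *Col8a1* and *Col8a2*, of the type VIII networks of vessel walls and cornea, were at 3.83 ± 0.539 and 2.46 ± 0.334 FPKM against 28.4 ± 0.89 and 25.9 ± 3.78 FPKM (log2 fold changes -3.01 and -3.52; SD, n = 3).

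The 9 FACIT genes held both the largest decreases and the increase. Of them 6 were lower, 1 was higher and 2 passed in neither direction, where 30.3% of all genes tested were lower and 31.3% higher. The 3 chains of type IX collagen, which coats the type II fibril, fell furthest of all collagens. *Col9a1* was at 1.03, 1.16 and 0.84 FPKM against 266.8, 265.8 and 283.1 FPKM, a log2 fold change of -8.25 (SE 0.12, adjusted p = 2.61e-08, edgeR), which was rank 26 from the lowest of all 14289 genes tested. *Col9a2* was at 5.51, 4.13 and 4.99 FPKM against 904.7, 1039 and 1079 FPKM (log2 fold change -7.81, SE 0.15). *Col9a3* was at 4.88, 4.05 and 3.74 FPKM against 671.9, 838.4 and 888.8 FPKM (log2 fold change -7.68, SE 0.18). All 3 were seen well above the floor in every MSC-derived library, at 63 to 346 counts.

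*Col14a1*, a FACIT of tendon and skin that sits on type I fibrils, was the 1 collagen gene called higher. It was at 23.4, 25.9 and 24.2 FPKM in the MSC-derived libraries and 8.88, 7.30 and 7.23 FPKM in the endogenous ones, with 3311 to 3742 and 1074 to 1298 counts. All 3 MSC-derived libraries lay above all 3 endogenous ones. The log2 fold change was 1.53 (SE 0.10, adjusted p = 1.06e-05, edgeR), and it was 1.58 without endogenous replicate 1. Over all alternatives it ran from 1.04, with limma on log2(TPM + 1), to 1.65, with scaling by library totals only. Of the 12 fibroblast genes listed, 11 were lower and *Pi16* was higher, at 42.4 ± 3.51 against 11.5 ± 0.789 FPKM (log2 fold change 1.69; SD, n = 3).

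*Col12a1*, the FACIT most like *Col14a1* in its place on type I fibrils, went the other way, at 1.31 ± 0.123 against 25.3 ± 5.23 FPKM (log2 fold change -4.45, SE 0.17; SD, n = 3). *Col22a1*, known from tissue junctions such as that of muscle and tendon, was at 16.3, 15.6 and 16.4 FPKM against 28.8, 25.8 and 24.8 FPKM, a small decrease of 0.84 on the log2 scale (SE 0.08, adjusted p = 6.85e-05, edgeR). *Col16a1* was at 3.96 ± 0.225 against 39.6 ± 6.69 FPKM (log2 fold change -3.48; SD, n = 3).

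*Col19a1*, a FACIT-like collagen of basement membrane zones, had 181, 156 and 143 counts in the MSC-derived libraries and 0, 25 and 50 in the endogenous ones. The groups did not overlap, but the log2 fold change of 2.61 (SE 0.98, adjusted p = 0.051, edgeR) did not pass the threshold. Without endogenous replicate 1, the library at 0, it did, with a log2 fold change of 1.98 (SE 0.28, adjusted p = 2.62e-06). It also passed without endogenous replicate 3, at 3.56 (adjusted p = 0.0379), and not without any one of the other 4 libraries, with adjusted p of 0.123 to 0.137. *Col20a1* had 37, 29 and 37 counts against 0, 37 and 45, and overlapped (log2 fold change 0.27, SE 1.10, adjusted p = 0.844, edgeR). Without endogenous replicate 1 its log2 fold change was -0.37 (SE 0.38, adjusted p = 0.388).

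Type VI collagen, the beaded filament around chondrocytes and fibroblasts, fell by nearly the same amount in its 3 main chains. *Col6a1* was at 56.6, 54.9 and 56.3 FPKM against 503.4, 556.7 and 567.8 FPKM (log2 fold change -3.40, SE 0.07). *Col6a2* was at 43.98, 45 and 44.03 FPKM against 420.3, 434.4 and 415.4 FPKM (-3.38, SE 0.06). *Col6a3* was at 6.01 ± 0.505 against 48.8 ± 6.31 FPKM (-3.15, SE 0.11; SD, n = 3), and adjusted p was at most 4.4e-07 for all 3 (edgeR). The chains that can replace *Col6a3* were near the floor: *Col6a5* had 9, 29 and 10 counts against 0, 9 and 21, and *Col6a6* had 19, 13 and 15 against 0, 8 and 4. Neither was called (log2 fold changes 0.62 and 1.86, SE 1.12 and 0.96, adjusted p = 0.652 and 0.13, edgeR), and neither was without endogenous replicate 1 (-0.01 and 1.25, SE 0.62 and 0.66, adjusted p = 0.984 and 0.0911). *Col6a4*, with at most 7 counts in any library, was not tested.

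Of the 4 transmembrane genes, 3 were tested and 2 of these were lower, where 30.3% of all genes tested were. *Col13a1*, found where cells attach to matrix, was at 0.43, 0.57 and 0.44 FPKM against 19.1, 20 and 16.2 FPKM (log2 fold change -5.40, SE 0.19, adjusted p = 3.73e-07, edgeR). *Col25a1*, best known from neurons, had 1, 4 and 0 counts against 136, 173 and 156 (log2 fold change -6.51, SE 0.73), so its MSC-derived level was at or near the floor. It passed the filter only through its endogenous libraries. *Col23a1* had 51, 73 and 28 counts against 92, 54 and 57 and was called in neither direction (log2 fold change -0.50, SE 0.47, adjusted p = 0.376, edgeR). With limma on log2(TPM + 1), chosen after the data were seen, it was called lower (-0.58, SE 0.22, adjusted p = 0.0484). It was not called in any other alternative, including that without endogenous replicate 1. *Col17a1*, the collagen of epithelial anchoring junctions, had 0, 0 and 3 counts against 0, 17 and 29 and was not tested. It was called lower when endogenous replicate 1 was left out (log2 fold change -4.46, SE 0.89, adjusted p = 0.00014, edgeR), and in none of the 6 other fits that tested it (DESeq2, edgeR without a filter or without any one MSC-derived library, and limma without a filter), with adjusted p of 0.0991 to 0.239.

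Of the remaining 5 genes, *Col15a1* and *Col18a1*, basement membrane collagens of vessels and other tissues, of which *Col18a1* is the source of endostatin, were lower. *Col15a1* was at 5.197 ± 0.635 against 44.8 ± 2.83 FPKM (log2 fold change -3.22, SE 0.12) and *Col18a1* at 2.69 ± 0.38 against 9.20 ± 0.969 FPKM (-1.90, SE 0.15; SD, n = 3). *Col7a1*, the anchoring fibril collagen, had 9, 10 and 18 counts against 0, 23 and 23 and passed in neither direction with endogenous replicate 1 (log2 fold change -0.36, SE 1.11, adjusted p = 0.797, edgeR) or without it (-1, SE 0.54, adjusted p = 0.1). *Col26a1* had 3, 2 and 5 counts against 0, 152 and 161 and was not tested, since it passed the filter on counts in fewer than 3 libraries. Without that library it was called lower, with a log2 fold change of -5.61 (SE 0.40, adjusted p = 8.62e-11, edgeR). It was also called by DESeq2 (adjusted p = 0.00102) and by edgeR without a filter (0.0246), but not by edgeR without any one MSC-derived library (0.0802 to 0.102) or by limma without a filter (0.0971). *Col28a1* had 1, 8 and 7 counts against 74, 4 and 0 and was not tested. Its 74 counts were in endogenous replicate 1, and without that library it had 4 and 0.

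The make-up of the collagen pool differed as well as its size. The share of a gene in the summed collagen FPKM of its own library does not depend on how libraries are scaled. An exact two-sided permutation test of 3 against 3 libraries cannot give a p below 0.1, and every share in this paragraph reached that value, with no overlap between the groups. Type I chains made up 41.6% ± 0.388 of collagen FPKM in the MSC-derived cells and 56.3% ± 1.74 in the endogenous cells (SD, n = 3). The cartilage chains of types II, IX, X and XI made up 12.7% ± 0.314 against 35.4% ± 1.59, of which *Col2a1* alone was 10.2% against 25.3%. *Col3a1*, by contrast, made up 21.5% ± 0.477 against 2.18% ± 0.0303, the type VI chains 11.1% ± 0.0942 against 3.61% ± 0.19, and the type V chains 4.98% ± 0.111 against 1.37% ± 0.0372. *Col14a1* made up 2.56% against 0.0277%, and *Col22a1*, although lower in level, 1.68% against 0.0939%. By class, fibrillar chains were 79.6% and 87.5%, and FACITs 5.94% and 7.76%.

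**Figure D3:**
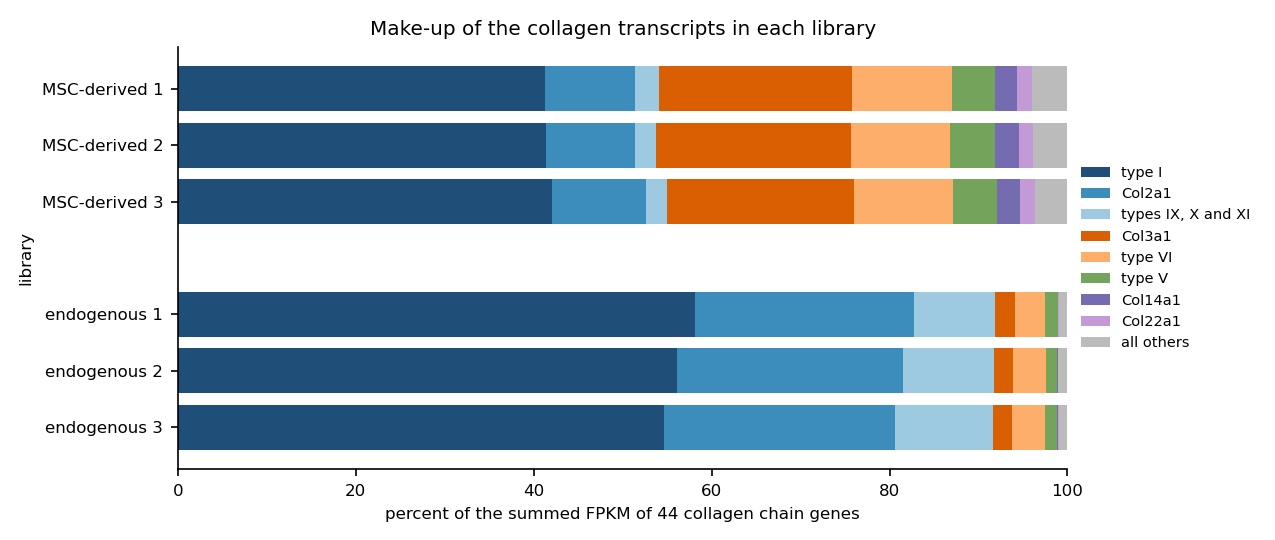
Share of each collagen type in the summed FPKM of the 44 collagen chain genes, 1 bar per library, starting at 0 and ending at 100%. Types I, II, IX, X and XI (blue shades) fill most of every bar. Type I takes on average 41.6% of the MSC-derived and 56.3% of the endogenous bars, and types II, IX, X and XI together 12.7% and 35.4%. *Col3a1* (dark orange) takes 21.0% to 21.9% of the MSC-derived bars against 2.16% to 2.21% of the endogenous ones.

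The order of the genes by level differed between the groups. In the MSC-derived cells it ran *Col1a1*, *Col3a1*, *Col1a2*, *Col2a1*, *Col6a1*, *Col6a2*, *Col5a2*, *Col14a1*, *Col5a1* and *Col22a1*, with the first 8 in the same place in every library and the last pair changing places between libraries. In the endogenous cells it ran *Col1a1*, *Col2a1*, *Col1a2*, *Col9a2*, *Col9a3*, *Col3a1*, *Col6a1*, *Col6a2*, *Col11a2* and *Col9a1*, with the first 8 fixed. Over the 40 genes tested, Spearman's rho of the mean FPKM between groups was 0.787, and that between endogenous level and log2 fold change was -0.588. Both describe genes, which are not independent replicates, and the second shares the endogenous libraries on both axes.

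For 7 ratios between collagen types, chosen after the values were seen and given with no test, the geometric means of the groups differed by 1.59 to 60.1 times. The ratio of *Col3a1* to *Col1a1* in FPKM was 0.767, 0.777 and 0.735 in the MSC-derived libraries and 0.0537, 0.0545 and 0.057 in the endogenous ones. That of *Col14a1* to *Col12a1* was 19.3, 17.8 and 18.9 against 0.284, 0.34 and 0.312. That of *Col6a1* to *Col2a1* was 0.591, 0.573 and 0.55 against 0.071, 0.0779 and 0.08. Between the cartilage chains, *Col9a2* to *Col2a1* was 0.0576, 0.0431 and 0.0487 against 0.128, 0.145 and 0.152, with each MSC-derived ratio below each endogenous one. *Col11a2* to *Col2a1* went the other way, at 0.0849, 0.084 and 0.0742 against 0.0445, 0.0554 and 0.0531. Relative to *Col1a1*, *Col2a1* was at 0.357, 0.354 and 0.371 against 0.598, 0.637 and 0.686, and *Col5a1* at 0.0606, 0.0589 and 0.0593 against 0.0131, 0.0134 and 0.0147.

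Ratios between chains of one collagen type moved by 1.02 to 2.27 times. For 9 such pairs, 4 had no overlap between the groups, and each of these reached the smallest exact permutation p of 0.1 (two-sided), or 0.225 adjusted over the 9 pairs by Benjamini-Hochberg. *Col1a1* to *Col1a2*, which join as 2 chains to 1 in type I collagen, had geometric mean ratios of 2.14 in the MSC-derived and 2.37 in the endogenous cells. *Col6a1* to *Col6a2* was at 1.26 and 1.28 and overlapped (exact p = 0.9). The widest difference was that of *Col11a1* to *Col11a2*, at 0.358, 0.259 and 0.311 in the MSC-derived libraries and 1.02, 0.536 and 0.613 in the endogenous ones. Endogenous replicate 1 was again the library farthest out, but the other 2 endogenous values were above all MSC-derived values too. The type VIII and IX pairs overlapped, with exact p from 0.2 to 0.4.

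**Figure D4:**
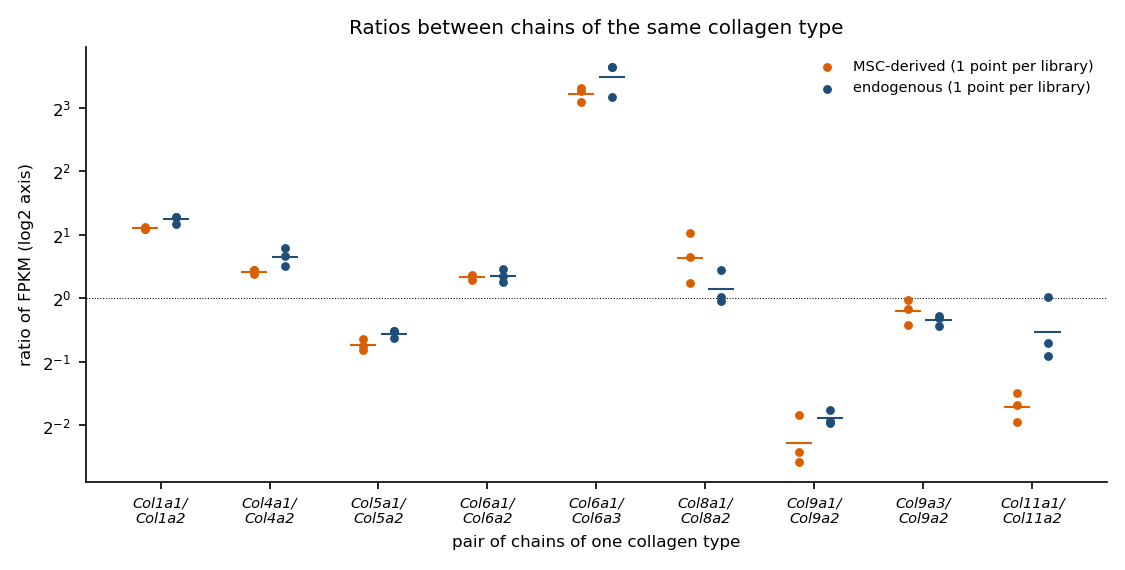
Ratio of the FPKM of chains of the same collagen type for 9 pairs on a log2 axis, with 1 point per library and a line at the geometric mean of each group. Most pairs lie close together in both groups, and *Col11a1* to *Col11a2* is the pair set furthest apart, with geometric means of 0.306 (MSC-derived) and 0.696 (endogenous).

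Several collagen genes lie next to each other, and 8 such pairs were found in RefSeq's order on GRCm38.p6. The type IV genes are paired head to head and share the stretch between them. *Col4a1* and *Col4a2* on chromosome 8 had log2 fold changes of -1.67 and -1.43 (SE 0.07 and 0.09). *Col4a4* and *Col4a3* on chromosome 1 had -3.32 and -3.73 (SE 0.47 and 0.94). *Col4a6* and *Col4a5* on chromosome X had -4.33 and -4.35 (SE 1.03 and 0.88). The genes of these last pairs passed the filter only through their endogenous libraries. A decrease was thus the only call open to them, and their likeness is no sign of a shared change. *Col6a2* and *Col6a1* on chromosome 10 had -3.38 and -3.40. Other neighbours moved apart: *Col3a1* and *Col5a2* on chromosome 1 had -1.69 and -3.17 (SE 0.06 and 0.08). *Col9a1* and *Col19a1*, shown in the promoter lines above, had -8.25 and 2.61 (SE 0.12 and 0.98), the latter not called. *Col6a6* and *Col6a5* on chromosome 9 had 1.86 and 0.62 (SE 0.96 and 1.12), and neither was called. *Col6a4*, the other neighbour of *Col6a5*, was not tested.

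Collagen chains are modified and folded in the endoplasmic reticulum, secreted, trimmed and cross-linked, and the genes of these steps were mostly lower too. Of 33 such genes, all tested, 30 were lower and 1 higher, where 30.3% and 31.3% of all genes were. Their median log2 fold change was -2.83. The largest decreases were those of *Loxl4*, a lysyl oxidase that cross-links collagen (0.54, 0.38 and 0.23 against 18.1, 17.3 and 16.6 FPKM, log2 fold change -5.61), *Pcolce2*, an enhancer of propeptide removal (12.99, 13.2 and 13.2 against 267.3, 224.9 and 250.4 FPKM, -4.35), and *Plod2*, which hydroxylates the lysines of the chain ends (14.6, 14.8 and 15.9 against 342.1, 227.9 and 251.9 FPKM, -4.28; SE 0.25, 0.09 and 0.16). *Colgalt1*, which adds galactose to collagen, was higher, at 85.8, 89.4 and 88.3 FPKM against 49.4, 54.9 and 58.2 FPKM (log2 fold change 0.60, SE 0.08, adjusted p = 0.000402, edgeR). FPKM summed over all genes was larger in the MSC-derived libraries, as given above, so an increase of this size can depend on the scaling. Alternative fits of single genes are given for collagen chain genes only. *Plod1* and *Tll2* passed in neither direction (adjusted p = 0.345 and 0.866). *Mia3* was called lower on counts (log2 fold change -0.48, SE 0.10, adjusted p = 0.00371, edgeR). In FPKM its groups overlapped, at 16.9, 19.2 and 17.2 against 17.7, 16.2 and 17.6 FPKM, so that call depends on the measure.

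Of 14 collagen receptors listed, 12 were tested, and 8 were lower and 3 higher, where 30.3% and 31.3% of all genes were. The median log2 fold change was -1.92. The largest decreases were those of *Itga10*, the integrin chain for type II collagen on chondrocytes (2.08, 1.58 and 1.61 against 38.0, 40.2 and 40.2 FPKM, log2 fold change -4.61, SE 0.13), *Adgrg6*, a receptor for type IV collagen (0.43, 0.57 and 0.4 against 5.84, 5.39 and 6.32 FPKM, -3.70, SE 0.17), and *Itga11*, an integrin chain for fibrillar collagen (1.56, 1.82 and 1.9 against 14.4, 17.6 and 17 FPKM, -3.32, SE 0.14). The higher genes were *Mrc1*, the macrophage mannose receptor, at 208.7, 214.6 and 215 FPKM against 0.05, 0.37 and 0.69 FPKM, *Lair1*, an inhibitory receptor of leukocytes, at 47.6, 49.96 and 49.3 FPKM against 0.14, 0.54 and 0.74 FPKM, and *Adgrg1*, a receptor for type III collagen, at 7.15, 7.03 and 7.99 FPKM against 0.62, 3.17 and 2.45 FPKM. Their log2 fold changes were 9.03, 6.58 and 1.71 (SE 0.55, 0.40 and 0.51; adjusted p = 5.86e-06, 5.38e-06 and 0.0214, edgeR). *Mrc1* is also 1 of the 12 macrophage genes above. In *Adgrg1* the lowest endogenous value was that of replicate 1, and no fit without that library is given for it.

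All 8 transcription factors of collagen genes listed were lower, where 30.3% of all genes were, with a median log2 fold change of -2.77. *Sp7*, a factor of osteoblasts, was at 0.59, 0.76 and 0.62 FPKM against 28.2, 30.4 and 27.7 FPKM (log2 fold change -5.55, SE 0.14). *Sox9*, which drives type II, IX and XI genes in chondrocytes, was at 11.6, 10.1 and 10.8 FPKM against 359.5, 343 and 325.5 FPKM (-5.10, SE 0.09). *Creb3l1*, which drives type I genes in osteoblasts, was at 12.8, 11.8 and 13.3 FPKM against 141.8, 148.9 and 140.7 FPKM (-3.63, SE 0.09). *Sox9* also stands in the chondrocyte list and *Sp7* in the osteoblast list.

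**Figure D5:**
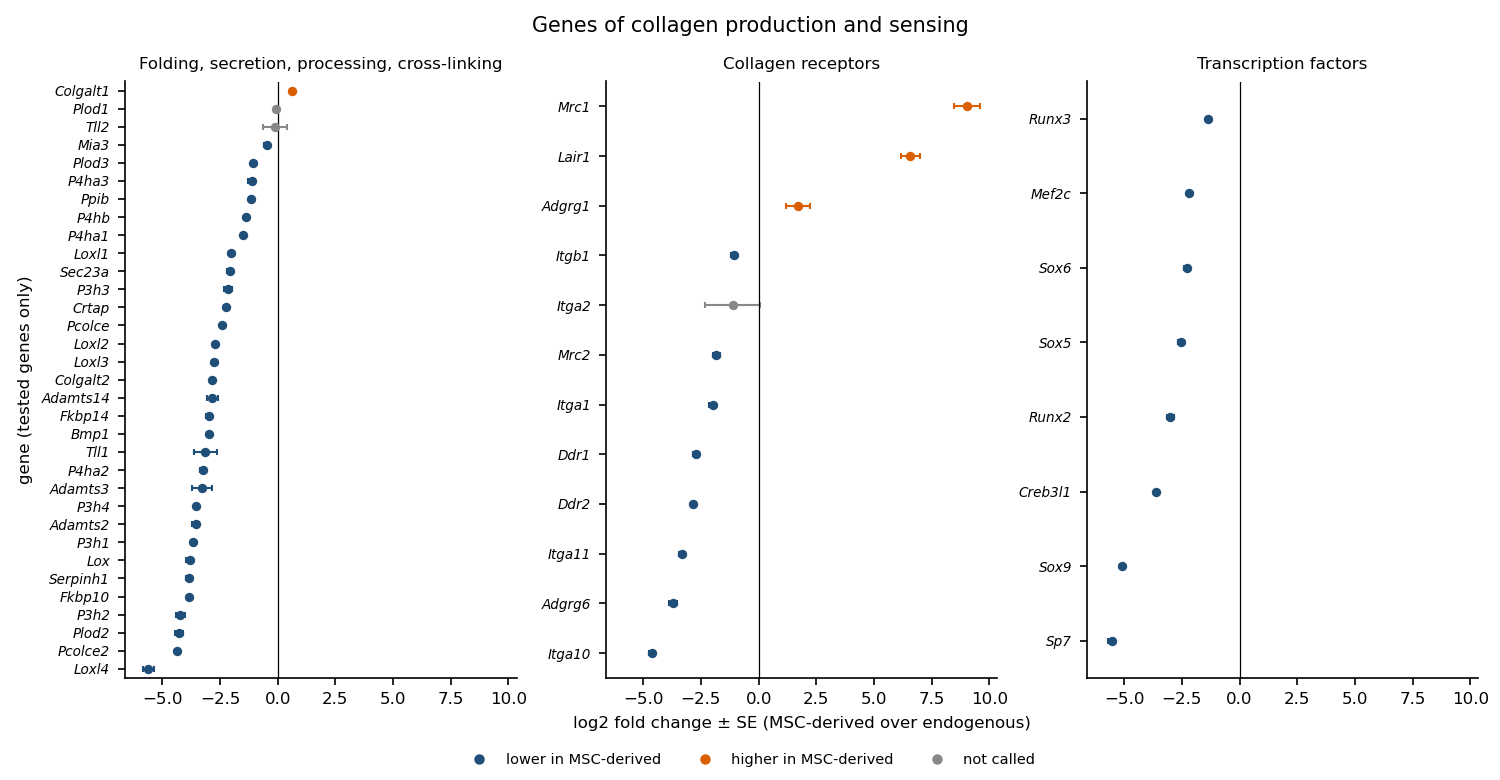
Log2 fold change with its standard error for the tested genes of 3 lists: folding, secretion, processing and cross-linking (33 genes), collagen receptors (12) and transcription factors of collagen genes (8). Nearly all points lie left of 0, and *Mrc1*, *Lair1* and *Adgrg1* among the receptors and *Colgalt1* in the first list lie to the right.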

How the data were processed

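Total RNA of sorted Tomato+ knee cartilage cells was extracted with Trizol and made into libraries with an Illumina TruSeq kit. The authors used SOAPnuke to clean the reads, HISAT2 and Bowtie2 to align them and RSEM to quantify genes. The submitters' processing notes name Bowtie2 2.2.5, RSEM 1.2.12 and build mm9, and the versions in the paper's methods differ. The authors deposited unnormalized expected counts, FPKM and TPM per gene and library, and a further deposited signal, which is proportional within a library to the rounded-up counts, served only as a check. Of the value columns, 24 were mapped to samples by name, and 8 deposited group averages were not used.

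Expected counts were rounded (20.6% were not whole) and put into edgeR 4.0.16, run in R 4.3.3 (TMM, filterByExpr, quasi-likelihood test, no block), over 14289 genes, with Benjamini-Hochberg adjustment and a threshold of 0.05. Standard errors (SE) were derived from the F statistic of that test. Shares and chain ratios used FPKM. The members and lists were chosen with earlier results of these data known. Named with values per library are the 10 most abundant collagen genes of either group, every collagen gene called higher or tested and not called, and the 5 largest decreases with at least 1 endogenous FPKM; of the pathway lists, each gene called higher and the 3 largest decreases. Deviations of same-numbered libraries correlated at 0.00221 to 0.0178, so no pairing by replicate number was seen. With 3 libraries per group this cannot exclude a shared batch. Alternatives used DESeq2 1.42.0, limma 3.58.1 and other scalings, filters, thresholds and left-out libraries. Figures were drawn with matplotlib 3.10.9.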

Additional observations from a re-analysis of the deposited data

How the results depend on the processing

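Of the 40 collagen genes tested, 30 kept their direction and their side of the threshold under every alternative. The count of collagen genes lower in the MSC-derived cells ran from 31 to 35 when a library was left out, and that of collagen genes higher from 1 to 2. It was also 2 with DESeq2, library totals in place of TMM, no filter, a CPM of at least 1 in 3 libraries, and limma on log2(FPKM + 1), on log2(FPKM + 0.1), without a filter, and on log2(TPM + 1), the last chosen after the data were seen; the added gene was *Col19a1*, with adjusted p of 0.000873 to 0.0499 in these fits. Over all genes, an adjusted p of 0.001 left 2134 higher and 2380 lower, and a minimum log2 change of 1 in size left 2756 higher and 3132 lower. With limma on log2(TPM + 1), 3124 were higher and 5962 lower. With a library left out, 3672 to 5563 were higher and 3761 to 5686 lower. The replicate block gave 4103 higher and 3920 lower genes, with 1 and 33 collagen genes, and changed no call of a collagen gene. No pairing by replicate number was seen. Signs of genes that were not called turned when a library was left out, with ranges of log2 fold change of -0.10 to 1.71 for *Col6a5*, -1 to 0.03 for *Col7a1* (0.25 with the replicate block) and -0.37 to 0.79 for *Col20a1*, and the log2 ratio of *Col6a1* to *Col6a2* differed between the groups by -0.07 to 0.03. From expected counts in place of FPKM, which weight genes by length, the difference in share was -17.9 percentage points for type I chains (main value -14.7), -19.6 for cartilage chains (-22.8) and 5.57 for type VI chains (7.52). The median of all genes moved from 0.05 to 0.16 with library totals, 0.13 and 0.19 with limma on log2(FPKM + 1) and log2(FPKM + 0.1), and -0.28 with limma on log2(TPM + 1), while the collagen median lay between -3.51 and -2.72 over all alternatives. *Col6a4*, *Col6a5*, *Col7a1* and *Col28a1* had few counts, and the part of depth in their values was not tested.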
